A study of Homo sapiens with 4 samples.

Results

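The solute carriers (SLC genes) that NOMO-1 leukaemia cells transcribe were followed through a pull-down of the RNA demethylase ALKBH5. Their members were taken by symbol: of 26830 gene symbols, 354 had the form of an SLC family member, and the 69 with a mean of at least 1 TPM (a read count corrected for transcript length and library size) over all 4 libraries were kept. Members were thus chosen by their TPM, and the 285 other symbols, 119 of them at 0 in every library, were not compared. That limit used the pull-down libraries as well: 31 members had a mean of at least 1 TPM in input, 38 passed only through their pull-down values, and none had a mean under 1 TPM in the pull-down. Just inside the limit were SLC24A1 with a mean of 1.015 TPM and SLC17A5 with 1.02, and just outside it SLC39A6 with 0.99 and SLC12A4 with 0.9875 TPM. Because many members could pass only by being high in the pull-down, counts over members are read below against counts over all genes and again over genes present in input.

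NOMO-1 is a human acute myeloid leukaemia line. All cells carried a lentivirus with the ALKBH5 coding sequence fused to 3xFlag and had passed puromycin selection, GFP sorting and UV crosslinking, so both groups share the overexpressed, tagged protein. The input group (ALKBH5 OE, no antibody) and the Flag-IP group (the same cells, RNA recovered with an anti-Flag antibody) had 2 libraries each, numbered 1 and 3. A control pull-down lacking the tag was not analysed here, so recovery by ALKBH5 and recovery by the antibody or beads cannot be told apart. Nothing states that the numbers stand for separate cultures, so p-values here rest on differences among libraries that could be technical repeats.

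Solute carriers are membrane proteins that move amino acids, sugars, nucleosides, ions, vitamins and metabolites across membranes without being driven directly by ATP hydrolysis. Most sit in the plasma membrane and feed the cell, while the SLC25 family sits in the inner mitochondrial membrane and exchanges nucleotides, phosphate and metabolic intermediates between cytosol and matrix. ALKBH5 is a demethylase of RNA: it erases N6-methyladenosine (m6A), a mark that often lies in the sequence GGAC. Grouped by the location their proteins are known for, the members were 30 plasma membrane carriers, 17 mitochondrial SLC25 carriers, 10 of the endoplasmic reticulum or Golgi, 5 of endosomes or lysosomes, 4 of other or unclear place, and 3 that carry an SLC symbol but transport nothing.

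Only 3.20 to 3.65% of input TPM and 6.42 to 7.49% of Flag-IP TPM came from RNA other than ribosomal and similar structural RNA. Genes reaching 1 TPM numbered 4076 and 4543 in input, and 7970 and 7249 in Flag-IP. TPM keeps no read depth, so the depth behind each value is unknown. In a bulk lysate, few cells with a transcript and little of it per cell cannot be told apart. As deposited, the median gene was 2.38 times higher in Flag-IP, and values are therefore also given on a median-ratio scale, on which each library is divided by its typical ratio over all genes; the median log2 difference there is 0.86 lower than on the deposited scale, and a difference reads as one from the typical gene. Because 1 TPM is added before taking logs, the step between the scales varies by gene, from 1.58 to 0.98 for SLC12A9 and from -0.43 to -1.66 for SLC25A6. ALKBH5 itself was at 4.62 and 4.91 TPM in input and 10.09 and 8.91 TPM in Flag-IP, and since all cells carry the transgene it does not check the labels. Of 12 myeloid and monocytic markers 7 had a mean of at least 1 TPM (summed 70.68 to 83.33 TPM in input and 122.03 to 126.96 in Flag-IP), with CTSG, ELANE and AZU1 present, CD14 at 0 in all libraries and MPO and CSF1R near 0. No marker of T, B, NK, erythroid, megakaryocytic, epithelial or fibroblast cells reached 1 TPM, with sums of at most 0.29 TPM per list and library.

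The extremes of the family were a vesicular nucleotide carrier, recovered far above the typical gene, and an ADP/ATP carrier of mitochondria, recovered far below it. Coding stretches of the latter, of the member of the plasma membrane class with the largest log2(TPM + 1) difference (SLC26A6 and SLC23A2 had larger TPM ratios, 6.58 and 6.04 against 5.66) and of the SLC25 carrier with the largest difference are shown, because GGAC is the sequence in which the mark removed by ALKBH5 often lies. Each line is the 60-base stretch of the coding sequence (GENCODE 29, GRCh38, sense strand, positions counted from 1 at the start codon) that holds the most GGAC, which stands in capitals; the 3 genes were chosen after their values were seen.
SLC3A2, chromosome 11, 62856102 to 62888875, plus strand, coding bases 1615 to 1674: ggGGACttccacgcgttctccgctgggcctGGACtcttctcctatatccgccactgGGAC
SLC25A12, coding bases 1363 to 1422: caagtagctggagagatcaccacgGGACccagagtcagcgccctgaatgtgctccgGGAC
SLC25A6, chromosome X, 1386152 to 1392724, minus strand, coding bases 109 to 168: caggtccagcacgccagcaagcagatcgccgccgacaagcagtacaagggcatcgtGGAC

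The SLC3A2 stretch held 3 GGAC, and 20.3% of 5975 protein-coding genes tested hold as many in 60 coding bases. SLC25A12 held 2 (68.8%) and SLC25A6 held 1 (97.1%). Over the whole coding sequence SLC3A2 had 11 GGAC in 1890 bases (5.82 per kb) and SLC25A6 had 3 in 894 bases (3.36 per kb). These 3 genes do not stand for the family: across the 69 members the density of GGAC and the difference between Flag-IP and input had a Spearman rho of -0.02, and across protein-coding genes one of -0.05. Only the sense strand was searched, and a match in the letters says nothing of whether the base is methylated or bound.

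Taken as a family, the carriers rose with most of the transcriptome, and relative to the typical gene they were called higher or lower at shares near those of all genes. Their summed TPM was 167.9 and 192.4 in the input libraries and 395.2 and 338.4 in the Flag-IP libraries. On the deposited scale 66 of 69 were higher in Flag-IP (limma, adjusted p below 0.05 over 6487 genes) and 1, SLC25A6, was lower. Of all genes 86.6% were called higher and 0.74% lower there, so the count mostly restates that background. With quantile scaling 14 members were higher and 5 lower. The share of all genes called under that scaling is not given here, so these counts cannot be set against it. The median member had a TPM ratio of 2.87 (range 0.734 to 15.2), beside 2.38 for the median gene.

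Relative to the typical gene, 19 members rose (27.5%), 8 fell (11.6%) and 42 did not pass the test, with a median log2 difference of 0.15 beside -0.01 over all genes. The background shares were 22.3% of genes called higher and 18.6% called lower, so neither count lies far from it. For 37 of the 69 members each Flag-IP value exceeded each input value, a larger share than the 37% of all genes (2399 of 6487). For 17 of the 69 each was smaller, a smaller share than the 37.1% of all genes (2409 of 6487). The limit favoured members high in Flag-IP, as 38 of the 69 passed it only through those values. These 2 shares were not taken again over genes present in input, so they say nothing of the family. Among the 31 members with at least 1 TPM in input, 9 rose and 5 fell; of the 4299 genes past that filter 18.3% rose and 15.1% fell. The counts of 19 rising and 8 falling members became smaller whichever 1 library was left out. Such a fit holds 1 library in 1 group and has less power, so the drop does not show that a count rests on that library.

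**Figure D1:**
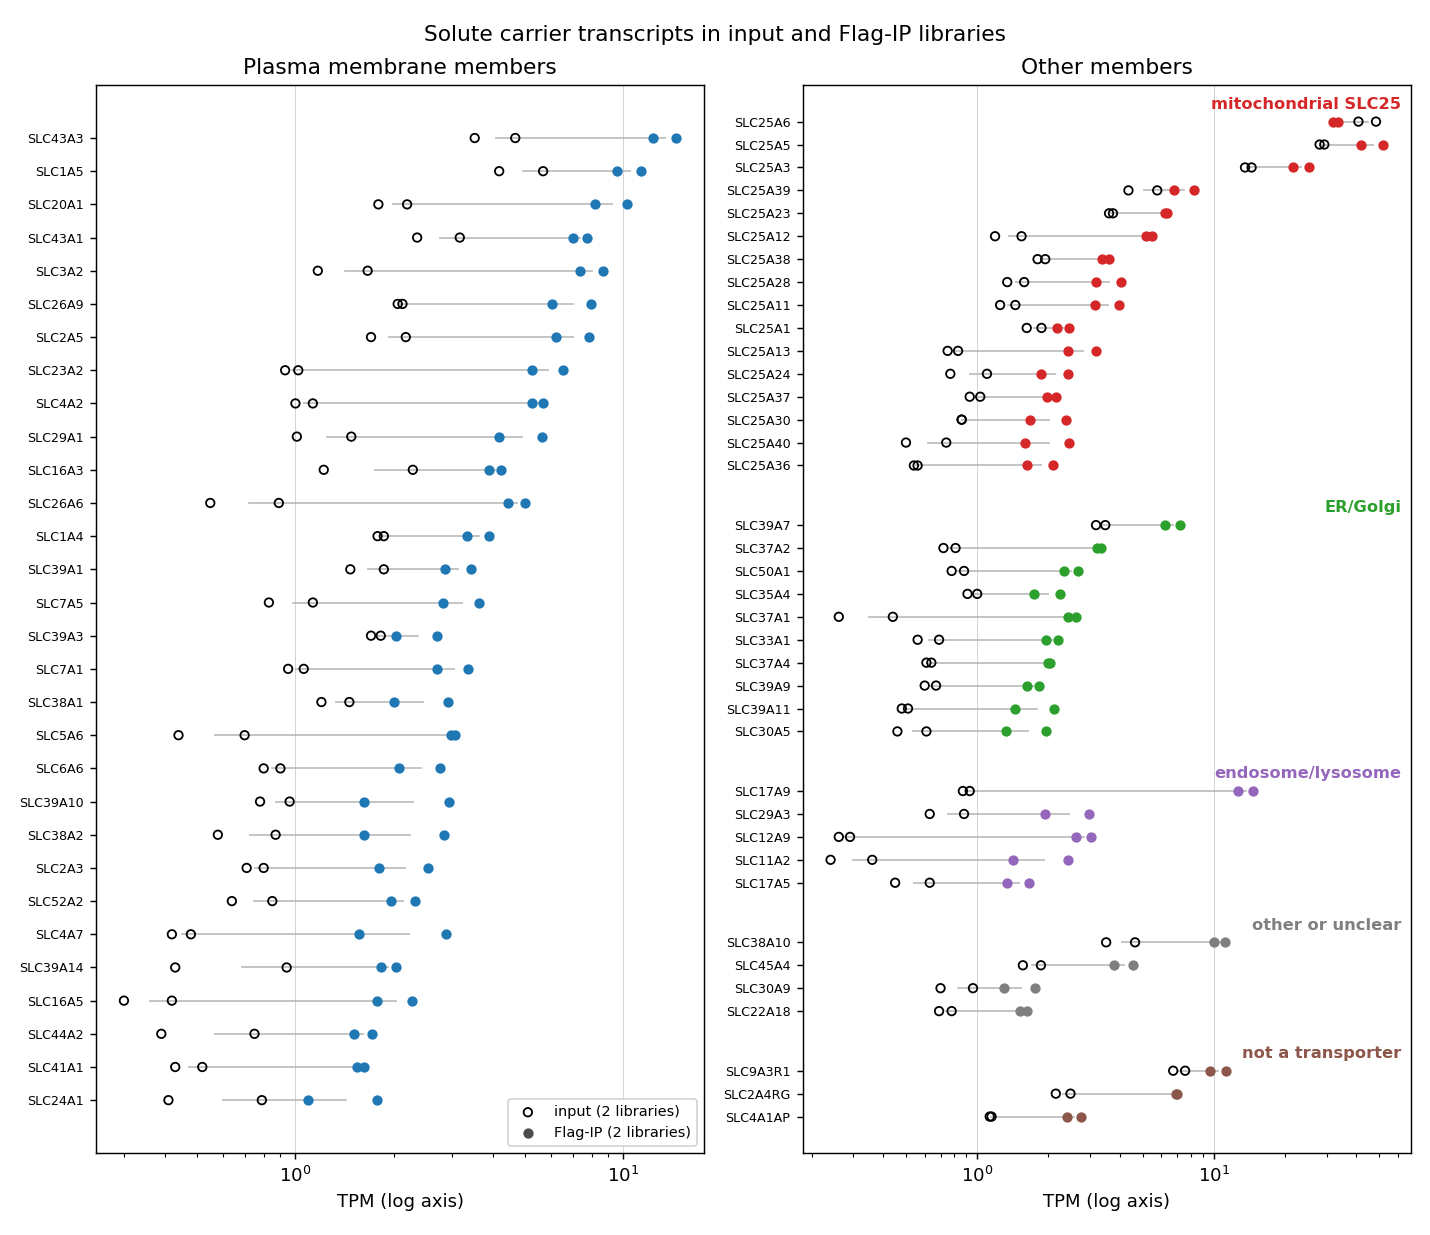
TPM (log axis) of the members, all but 1 of the SLC25 class, in 2 input libraries (open circles) and 2 Flag-IP libraries (filled circles), joined by a line between group means and grouped by known location. All members shown but SLC25A6 have both filled circles to the right of both open ones, and SLC17A9 has the widest gap, from 0.87 and 0.93 to 14.66 and 12.63 TPM.

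Among the 30 plasma membrane carriers, 12 rose relative to the typical gene (40%, where 22.3% of all genes did), 1 fell (3.33%, against 18.6%) and 17 did not pass the test. The median log2 difference was 0.20, with a range of -0.56 to 0.96, and the median TPM ratio was 3.05. Of the 12, SLC23A2, SLC26A6, SLC5A6, SLC4A7 and SLC16A5 had a mean under 1 TPM in input and passed the limit only through Flag-IP, which favoured rises. Restricted to the 15 carriers with at least 1 TPM in input, 7 rose, none fell and the median was 0.33. Of all genes past that filter 18.3% rose and 15.1% fell. Without 1 library the 12 became 7 (input 1), 9 (input 3), 6 (Flag-IP 1) or 7 (Flag-IP 3).

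The largest log2 differences of the class were those of SLC3A2, SLC26A6, SLC23A2 and SLC4A2, which carry or support the transport of different solutes. SLC3A2, the CD98 heavy chain that brings amino acid exchangers such as LAT1 to the cell surface, was at 1.17 and 1.66 TPM in input and at 8.67 and 7.36 TPM in Flag-IP. The libraries of the groups lay far apart, and the log2 difference was 0.96 (SE 0.11, adjusted p = 0.00222). SLC26A6, an anion exchanger, was at 0.55 and 0.89 TPM in input and 5.02 and 4.45 TPM in Flag-IP, a log2 difference of 0.95 (SE 0.12, adjusted p = 0.00292). SLC23A2, a sodium-coupled vitamin C transporter, rose from 0.93 and 1.02 to 6.53 and 5.25 TPM (0.93, adjusted p = 0.00165).
SLC4A2, the chloride/bicarbonate exchanger AE2, was at 1.00 and 1.13 TPM in input and 5.69 and 5.28 TPM in Flag-IP (log2 difference 0.78, adjusted p = 0.00354). SLC20A1, the sodium/phosphate cotransporter PiT1, was at 1.79 and 2.19 against 10.28 and 8.17 TPM (0.76, adjusted p = 0.00284). SLC5A6, which takes up biotin and pantothenate, was at 0.44 and 0.70 against 3.06 and 2.99 TPM (0.66, adjusted p = 0.00908). The calls of these 6 carriers held in every alternative in which they had a value. SLC26A6, SLC23A2 and SLC5A6 passed the limit only through Flag-IP and had no value with a filter on input, so that filter could not check them. Exons of SLC4A2 overlap those of CDK5 on the opposite strand over 331 bases, and SLC26A6 holds a microRNA gene in its exons over 63 bases; whether the counting used strand is not given in the sources used here.

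A further 6 carriers of this class, named because they passed, rose less firmly. Nucleoside and nucleobase transport was represented by SLC29A1 (ENT1) at a log2 difference of 0.51 and SLC43A3 at 0.40, and sugar transport by the fructose transporter SLC2A5 at 0.47. SLC16A5, of the monocarboxylate transporter family, was at 0.55, the bicarbonate cotransporter SLC4A7 at 0.49 and the anion transporter SLC26A9 at 0.37. SLC43A3 had the highest level of the class, with 3.52 and 4.68 TPM in input and 14.49 and 12.30 TPM in Flag-IP. Its call and that of SLC26A9 were lost on leaving out any 1 library (0.32 to 0.49 and 0.28 to 0.49). The SLC29A1 and SLC2A5 calls were lost without input 1, Flag-IP 1 or Flag-IP 3 (0.42 to 0.55 and 0.43 to 0.47). SLC16A5 lost its call without Flag-IP 1 (0.49) or Flag-IP 3 (0.54), and SLC4A7 without input 1 (0.53), input 3 (0.51) or Flag-IP 1 (0.29). With the length trend removed SLC4A7 was at 0.16 and SLC26A9 at 0.21, neither past the test. With no filter SLC43A3 (0.36), SLC29A1 (0.48), SLC16A5 (0.53), SLC4A7 (0.46) and SLC26A9 (0.34) lost their calls. With quantile scaling SLC16A5 (0.33), SLC4A7 (0.31) and SLC26A9 (0.36) did. SLC26A9 also lost its call with the replicate block or the crossed block (0.37). Exons of SLC43A3 share 1349 of 4517 bases with AP000781.2 on the same strand, so their reads may have been split.

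The 3 abundant or well-known amino acid carriers named next did not pass the test relative to the typical gene. SLC1A5, the glutamine transporter ASCT2, was at 4.18 and 5.69 TPM in input and 11.31 and 9.59 TPM in Flag-IP, which is a log2 difference of -0.15 (adjusted p = 0.332) relative to the typical gene; this turned to 0.074 with structural RNAs left out, 0.041 with a filter at 5 TPM and 0.026 with a filter on input. SLC43A1, the neutral amino acid transporter LAT3, was at 2.35 and 3.17 against 7.73 and 7.03 TPM (0.14, adjusted p = 0.375). SLC7A5, the LAT1 partner of SLC3A2, was at 0.83 and 1.13 against 2.81 and 3.64 TPM (0.30, adjusted p = 0.197). That is a TPM ratio of 3.29, where SLC3A2 had 5.66; the difference between the partners was not tested.

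The lowest differences of the class were those of SLC39A3, SLC38A1, SLC39A1 and SLC1A4, and only the first passed the test. SLC39A3 (ZIP3) was at 1.82 and 1.70 TPM in input and 2.03 and 2.71 TPM in Flag-IP, the smallest step of any plasma membrane member, and fell relative to the typical gene by 0.56 (SE 0.17, adjusted p = 0.0442). That call was lost without input 1 (-0.47), input 3 (-0.70) or Flag-IP 1 (-0.32), with the replicate block and with a filter on input (-0.43). It was also lost with structural RNAs left out (-0.59), with no filter (-0.59) and with the length trend removed (-0.53). Exons of SLC39A3 share 436 of 4552 bases with AC006538.2 on the same strand. SLC38A1 (SNAT1), SLC39A1 (ZIP1) and SLC1A4 (ASCT1) were at -0.25, -0.24 and -0.20. Exons of SLC39A1 share 2061 of 3388 bases with AL358472.7 on the same strand, so reads of SLC39A1 may have been split. Other zinc importers and neutral amino acid carriers of the class, SLC39A10 at 0.04, SLC39A14 at 0.16 and SLC38A2 at 0.18, did not pass either. After removal of the trend with transcript length SLC38A1 passed at -0.58 and SLC1A4 at -0.42.

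Of the 17 mitochondrial SLC25 carriers 2 rose relative to the typical gene (11.8%, where 22.3% of all genes did), 6 fell (35.3%, against 18.6%) and 9 did not pass the test, with a median log2 difference of -0.04 and a range of -1.66 to 0.52. Their median TPM ratio was 2.28. Of the 10 with at least 1 TPM in input 1 rose and 4 fell, with a median of -0.27 (18.3% of all genes past that filter rose and 15.1% fell). Without 1 library the 6 falling carriers became 3 (input 1), 5 (input 3), 3 (Flag-IP 1) or 4 (Flag-IP 3), and the 2 rising ones 0, 1, 1 and 0.

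The abundant nucleotide and phosphate carriers fell relative to the typical gene. SLC25A6, the ADP/ATP carrier ANT3, was at 40.91 and 48.53 TPM in input and 32.03 and 33.60 TPM in Flag-IP. It was the only member lower in both Flag-IP libraries as deposited, at a ratio of 0.734, and only 54 of 6487 genes had a smaller ratio. Relative to the typical gene it fell by 1.66 (SE 0.14, adjusted p = 0.00102), a call that held in every alternative. As deposited it fell by 0.43 (adjusted p = 0.0485), and that call was lost on leaving out any 1 library (-0.55 without input 1, -0.31 without input 3, -0.40 without Flag-IP 1, -0.46 without Flag-IP 3; adjusted p = 0.0866 to 0.323) and with the replicate block (adjusted p = 0.227). The gene lies in the pseudoautosomal region that chromosomes X and Y share.
Its paralog SLC25A5, the ADP/ATP carrier ANT2 (chromosome X, 119468400 to 119471319, plus strand), was at 28.03 and 29.34 TPM in input and 51.90 and 41.95 TPM in Flag-IP. This rise of 1.64 times is less than that of the typical gene, a log2 difference of -0.55 (SE 0.11, adjusted p = 0.0104). The call was lost without input 1 (-0.48), with quantile scaling (-0.05) and after removal of the length trend (-0.20).

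The carriers ANT2 and ANT3 are near neighbours in sequence, which bears on how far reads can be told apart. Both coding sequences have 894 bases, with 190 differences (78.7% identical), and their longest identical run has 29 bases. That run is shown with its flanks, coding bases 77 to 121, with the differing bases in capitals.
SLC25A5: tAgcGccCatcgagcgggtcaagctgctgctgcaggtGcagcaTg
SLC25A6: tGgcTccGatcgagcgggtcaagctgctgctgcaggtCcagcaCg

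GENCODE 29 lists 9 pseudogenes named after SLC25A5, 6 after SLC25A6 and 2 after SLC25A3, so values of these 3 genes are uncertain to the extent that reads were split among copies. SLC25A3, the mitochondrial phosphate carrier, was at 14.46 and 13.56 TPM in input and 25.26 and 21.58 TPM in Flag-IP (log2 difference -0.50, adjusted p = 0.0269). The call was lost without input 1 (-0.35), Flag-IP 1 (-0.45) or Flag-IP 3 (-0.53) and with a filter on input (-0.31). It was also lost with quantile scaling (-0.16), structural RNAs left out (-0.28), no filter (-0.54) and a filter at 5 TPM (-0.29).

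The other SLC25 members that fell were SLC25A39, SLC25A1 and SLC25A23. SLC25A39, which carries glutathione into mitochondria, was at 4.36 and 5.77 TPM in input and 8.25 and 6.79 TPM in Flag-IP (log2 difference -0.59, adjusted p = 0.00859), and its call held in every alternative. SLC25A1, the citrate carrier, was at 1.62 and 1.87 against 2.45 and 2.18 TPM (-0.57, adjusted p = 0.00741), a call lost without Flag-IP 1 (-0.49) and after removal of the length trend (-0.28). SLC25A23, an ATP-Mg/phosphate carrier, was at 3.61 and 3.75 against 6.37 and 6.23 TPM (-0.40, adjusted p = 0.0424). The SLC25A23 call was lost on leaving out any 1 library (-0.50 to -0.28), with structural RNAs left out (-0.24) and with a filter on input (-0.24). It was also lost with quantile scaling (-0.37), with no filter (-0.44) and with the replicate block (-0.40). Their closest relatives in the class did not pass: SLC25A40, the paralog of SLC25A39, was at 0.23 (adjusted p = 0.166) and SLC25A24, another ATP-Mg/phosphate carrier, at -0.04 (adjusted p = 0.80).

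Both aspartate/glutamate carriers of the family, which serve the malate-aspartate shuttle and carry long calcium-binding amino-terminal domains, rose. SLC25A12 (aralar) was at 1.19 and 1.54 TPM in input and 5.51 and 5.19 TPM in Flag-IP, a log2 difference of 0.52 (SE 0.11, adjusted p = 0.0142), and SLC25A13 (citrin) was at 0.75 and 0.83 against 3.19 and 2.43 TPM (0.33, adjusted p = 0.0393). The SLC25A12 call was lost without input 1 (0.49) or Flag-IP 3 (0.43) and with no filter (0.49). That of SLC25A13 was lost on leaving out any 1 library (0.28 to 0.37), with quantile scaling (0.23) and with no filter (0.31). It was also lost with the replicate block or the crossed block (0.33). SLC25A13 passed the limit only through Flag-IP, which favoured a rise, and had no value with a filter on input. Their coding sequences, of 2034 and 2025 bases, are the longest of the 17. SLC25A36, a pyrimidine nucleotide carrier, was at 0.24 (adjusted p = 0.0939) and did not pass.

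**Figure D2:**
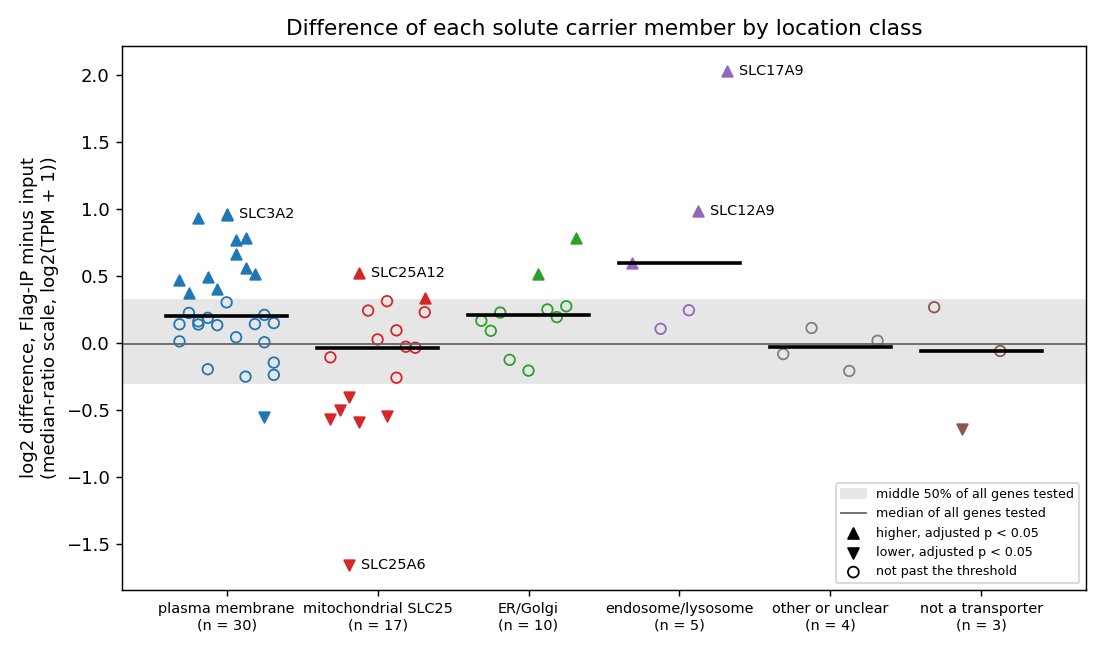
Log2 difference of each member, Flag-IP minus input, on the median-ratio scale (log2(TPM + 1), y axis) by location class (x axis); black bars are class medians, triangles mark members past an adjusted p of 0.05, and the grey band is the middle 50% of all genes tested. The bar of the plasma membrane class is at 0.20 and that of the SLC25 class at -0.04, with SLC17A9 at 2.03 and SLC25A6 at -1.66 outside all others.

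Set against each other, the SLC25 class had a median log2 difference 0.23 lower than the plasma membrane class. In each library the class medians, centred on each gene's mean, differed by 0.256 and 0.141 in input and by -0.112 and -0.184 in Flag-IP (SLC25 minus plasma membrane; SD within groups 0.0679), so the groups did not overlap; as 2 libraries a group were compared and the members were chosen with these data known, no test was made. The gap kept its sign in every alternative and ranged from -0.82 with a filter at 5 TPM to -0.20 without Flag-IP 3. It was -0.61 over members with at least 1 TPM in input and -0.38 without input 3.

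The classes also differ in properties that move with the difference over all genes. Median coding length was 1609.5 bases in the plasma membrane class, 1014 in the SLC25 class and 1440 over all coding genes. Coding length and the log2 difference had a Spearman rho of 0.46 over the 69 members and 0.59 over protein-coding genes, and mean input TPM had one of -0.49 and -0.54. The difference contains each gene's input value, and the limit on the mean of all 4 libraries kept low-input genes only where Flag-IP was high. A negative rho with input level is thus partly built in, and all points share the same 4 libraries. Median input level was 0.99 TPM in the plasma membrane class and 1.37 TPM in the SLC25 class. With the trend in longest transcript length removed the class medians were 0.12 and -0.15, a gap of -0.27, beside -0.23 as reported. That length is not coding length: its rho with the difference was 0.14 over the members and 0.47 over protein-coding genes. A trend in coding length was not removed, so the gap after such a step is unknown. Calls changed with it, from 2 higher and 6 lower to 4 and 4 in the SLC25 class and from 12 and 1 to 10 and 2 in the plasma membrane class. The part of coding length and of input level in the gap was not tested. A transcript with a retained intron is annotated for 48 of the 69 members (69.6%) and for 67.3% of coding genes.

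**Figure D3:**
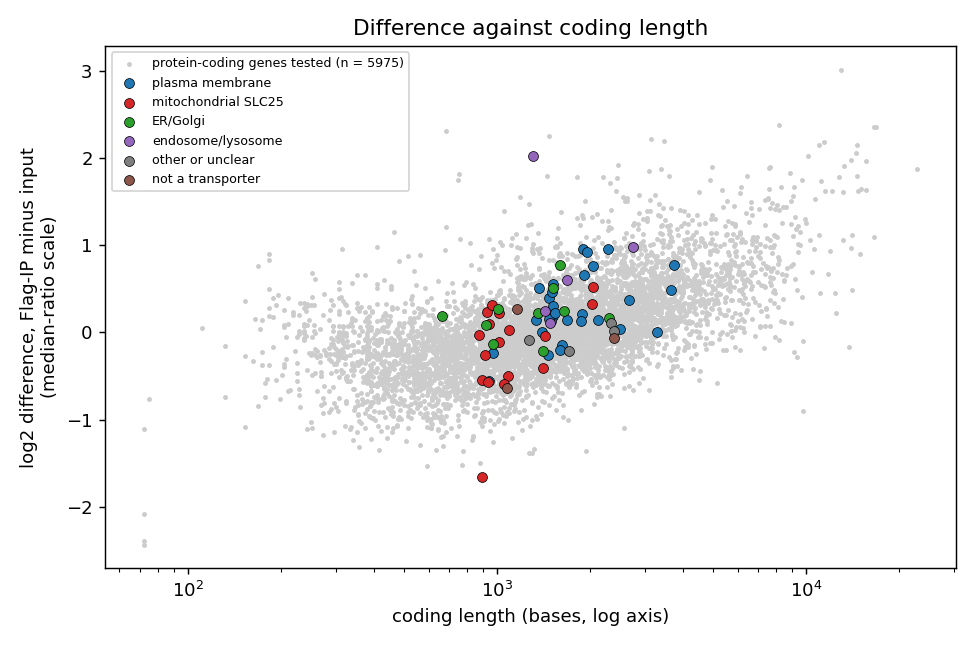
Log2 difference, Flag-IP minus input, on the median-ratio scale (y axis) against coding length in bases (x axis, log) for 5975 protein-coding genes tested (grey) and the members (coloured by class). Longer members tend to have higher differences, as in the grey cloud, SLC25 carriers have a median coding length of 1014 bases with SLC25A12 and SLC25A13 above 1440, and SLC17A9 at 1308 bases and SLC25A6 at 894 bases lie at its upper and lower rim.

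**Figure D4:**
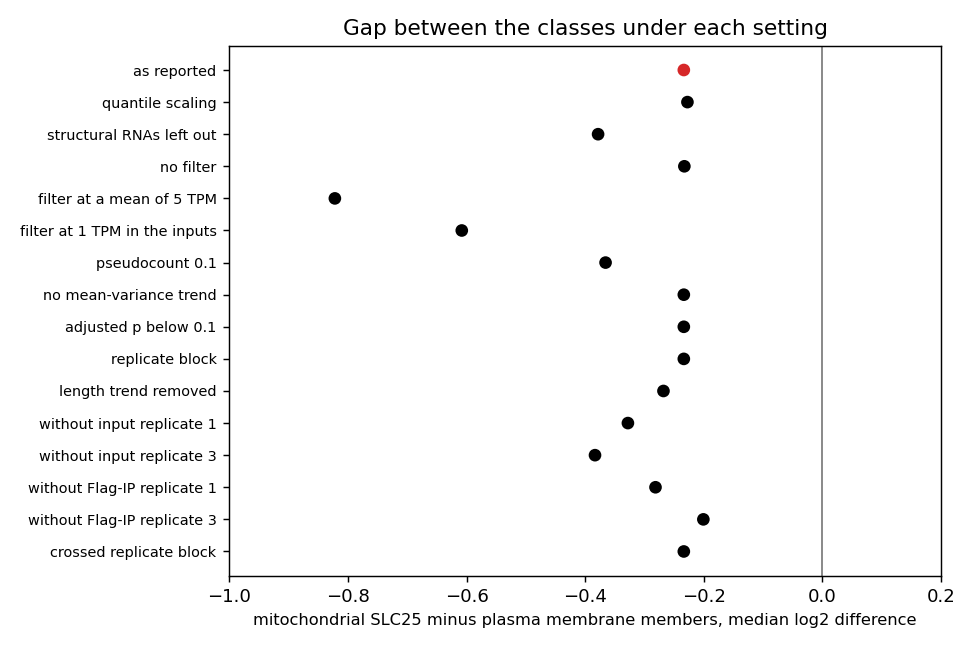
Median log2 difference of the SLC25 class minus that of the plasma membrane class (x axis) as reported (red) and under each alternative setting (black, y axis). Every point lies left of 0, between -0.82 and -0.20.

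The 2 largest log2 differences of the family were those of SLC17A9 and SLC12A9, in the class of vesicles, endosomes and lysosomes. None of its 5 members had a mean of 1 TPM in input, so all passed the limit through Flag-IP; 3 rose and none fell (22.3% and 18.6% of all genes did), which the limit favoured and which says nothing of the class. SLC17A9 (chromosome 20, 62952647 to 62969585, plus strand), the vesicular nucleotide transporter that loads ATP into secretory vesicles and lysosomes, was at 0.87 and 0.93 TPM in input and 14.66 and 12.63 TPM in Flag-IP. Only 84 of 6487 genes had a larger ratio than its 15.2, and the log2 difference was 2.03 (SE 0.10, adjusted p = 0.000386). SLC12A9, a member of the cation-chloride cotransporter family, was at 0.29 and 0.26 against 3.04 and 2.62 TPM, a ratio of 10.3 and a log2 difference of 0.98 (SE 0.10, adjusted p = 0.00154). Both calls held in every alternative with a value. SLC11A2, the iron transporter DMT1, was at 0.24 and 0.36 against 2.43 and 1.42 TPM (0.60, adjusted p = 0.0121), a call lost with quantile scaling (0.34) and with no filter (0.58). The lysosomal nucleoside transporter SLC29A3 at 0.24 and the sialic acid exporter SLC17A5 at 0.10 did not pass. Exons of SLC12A9 overlap those of EPHB4 on the opposite strand over 69 bases, and none of another gene overlap SLC17A9.

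In the endoplasmic reticulum and Golgi class 2 of 10 members rose (20%, where 22.3% of all genes did) and none fell (18.6% of all genes did), with a median of 0.21. Of the 10, 9 had a mean under 1 TPM in input and passed the limit only through Flag-IP, so the count says nothing of the class. Both were sugar-phosphate exchangers of the SLC37 family: SLC37A1, at 0.26 and 0.44 TPM in input and 2.61 and 2.43 TPM in Flag-IP (log2 difference 0.78, adjusted p = 0.00411), and SLC37A2, at 0.81 and 0.72 against 3.35 and 3.22 TPM (0.51, adjusted p = 0.0205). The SLC37A2 call was lost without input 3 (0.42) or Flag-IP 3 (0.41), with no filter (0.49) and with the length trend removed (0.37). SLC37A4, the glucose-6-phosphate transporter, was at 0.22 and did not pass. SLC39A7 (ZIP7), which releases zinc from the endoplasmic reticulum, had the highest level, 3.18 and 3.48 against 7.20 and 6.24 TPM, and a difference of -0.21 (adjusted p = 0.147). The sugar transporter SLC50A1 was at 0.19 and SLC35A4 at -0.13, the latter turning to 0.025 with structural RNAs left out.

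None of the 4 members of other or unclear place passed; SLC38A10 was the most abundant of them, at 3.51 and 4.65 TPM in input and 11.19 and 10.02 TPM in Flag-IP (0.11, adjusted p = 0.471). The 3 symbols that name no transporter split. SLC9A3R1, the scaffold protein NHERF1 that tethers membrane transporters, was at 6.74 and 7.57 against 11.23 and 9.67 TPM and fell relative to the typical gene by 0.64 (adjusted p = 0.00516), a call that held in every alternative. SLC2A4RG, a transcription factor, was at 0.26 (adjusted p = 0.126) and passed at 0.42 with a filter on input, and SLC4A1AP (kanadaptin) was at -0.06 and turned to 0.14 with structural RNAs left out. In all, exons of 36 members overlap those of another gene, 11 on the same strand, and among the members described these include SLC25A5 (SLC25A5-AS1, 227 bases, opposite strand), SLC25A12 (METAP1D, 181 bases, opposite strand) and SLC9A3R1 (AC016888.1, 261 bases, opposite strand).

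Genes that work with solute carriers were taken from lists made without regard to how they moved, though with earlier results known. Tested were 8 proteins of the import path that inserts SLC25 carriers into the inner membrane (TOM receptors and small TIM chaperones). Of these 4 fell (50%, where 18.6% of all genes did) and none rose (22.3% of all genes did), with a median of -0.33. With a filter on input, which all 8 passed, 3 fell (15.1% of all genes did). TOMM40, the import pore, was at 4.36 and 5.27 TPM in input and 11.82 and 10.0 TPM in Flag-IP (-0.07, adjusted p = 0.584), while TIMM13, a small chaperone of the intermembrane space, was at 2.51 and 3.55 against 2.71 and 3.42 TPM (-0.92, adjusted p = 0.00884). TOMM20, a receptor, was at -0.33 (adjusted p = 0.0436; 0.254 with a filter on input), and TIMM8B had the highest difference at 0.01.

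Of 17 tested transporters without an SLC symbol 3 rose (17.6%, where 22.3% of all genes did) and none fell (18.6% of all genes did). Their median was 0.02. Of the 3, MFSD1 and MFSD2A passed the limit only through Flag-IP. With a filter on input 1 of 9 rose (18.3% of all genes did). MFSD2A, a lysophospholipid transporter, was at 0.86 and 0.89 TPM in input and 5.50 and 4.84 TPM in Flag-IP (0.88, adjusted p = 0.00224). The mitochondrial carriers MTCH1 and UCP2, the most abundant of the list, were at -0.01 and -0.32 and did not pass. Of 10 tested ATP-driven P-type pumps 5 rose (50%, where 22.3% of all genes did) and none fell (18.6% of all genes did). Their median was 0.39. Of the 5, 4 passed the limit only through Flag-IP; of the 6 with at least 1 TPM in input 3 rose (18.3% of all genes did). ATP13A1, a pump of the endoplasmic reticulum, was at 0.75 and 1.22 against 6.79 and 5.58 TPM (1.00, adjusted p = 0.00283).

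Among 15 tested partners and regulators 3 fell (20%, where 18.6% of all genes did) and none rose (22.3% of all genes did), with a median of -0.08. With a filter on input, 2 of 12 fell and 2, OXSR1 and WNK1, rose (15.1% of all genes past that filter fell and 18.3% rose). Neither count lies far from those shares. ATF4, the transcription factor that drives amino acid transporter genes under stress, was at 13.76 and 16.29 TPM in input and 17.58 and 15.72 TPM in Flag-IP (-1.05, adjusted p = 0.00146). Basigin (BSG), the chaperone of monocarboxylate transporters, was at 9.40 and 11.77 against 16.23 and 13.46 TPM (-0.72, adjusted p = 0.00384), and the lysosomal scaffold LAMTOR2 was at -0.53 (adjusted p = 0.0454; 0.156 with a filter on input). OXSR1, a kinase that regulates cation-chloride cotransporters, had the highest difference at 0.28 (adjusted p = 0.07; 0.41 and 0.0338 with a filter on input), and WNK1, a kinase upstream of it, was at 0.25 (adjusted p = 0.0888; 0.41 and 0.0212 with a filter on input).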

How the data were processed

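The authors deposited 1 TPM value for each gene symbol in each of 4 RIP-seq libraries, made with STAR and RSEM on GRCh38 per the submitters' processing notes; their versions, the gene annotation and the strand setting were not given in the sources used here. TPM keeps no depth, so no counting intervals are given. The 6487 genes whose mean reached 1 TPM were fitted on log2(TPM + 1) with limma 3.58.1 in R 4.3.3 (eBayes with trend, two-sided, Benjamini-Hochberg over all genes, adjusted p below 0.05), as deposited and after median-ratio scaling. The prior degrees of freedom were infinite and 4.02, with 2 residual. The test was checked on simulated data. A log2 difference on this scale understates low genes. Gene models are from GENCODE 29 by symbol; all 69 members matched as protein coding. Location classes come from textbook knowledge. The members and lists were chosen with earlier results of these data known.

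Named were, in the plasma membrane and SLC25 classes, the 4 with the highest mean TPM and the 4 highest and 4 lowest differences; in the reticulum/Golgi and endosome/lysosome classes the 3 highest means and the 2 highest and 2 lowest differences; all non-transporters; the 2 nearest the limit on each side; and per related list the 2 highest means and the largest difference in each direction. Other members that passed were named after their values were seen. So were SLC7A5, SLC37A4, SLC38A10, SLC25A40, SLC25A24, SLC39A10, SLC39A14, SLC38A2, MFSD1, LAMTOR2, WNK1 and the sequences shown. Same-numbered libraries did not deviate together (correlation -0.187 on the median-ratio scale), so the fit has no block. Alternatives were quantile scaling, structural RNAs left out, no filter, filters at a mean of 5 TPM and at 1 TPM in input, a pseudocount of 0.1, no trend, a threshold of 0.1, a replicate block, a length trend removed, and leaving out each library; a block with crossed numbers was added after seeing the data. A few items that this rule names are not reported here.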

Additional observations from a re-analysis of the deposited data

How the results depend on the processing

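With 2 libraries a group, no depth and no untagged pull-down, single calls are weakly held: of 27 calls relative to the typical gene, 12 (9 higher, 3 lower) were kept in every alternative with a value and 15 were lost in at least 1. Fewer genes were tested under the filters, and members with a mean under 1 TPM in input had no value with the filter on input. Among the 9 kept higher calls these were SLC17A9, SLC12A9, SLC23A2, SLC26A6, SLC5A6 and SLC37A1. They passed the limit only through Flag-IP, and that filter could not check them. Of the 9, only SLC20A1, SLC3A2 and SLC4A2 were kept with it, as were the 3 lower calls. Shares of all genes called are given only for the 2 main fits and, on the median-ratio scale, the filter on input. Under the other alternatives a changed count of members cannot be set against that of all genes. The cause of the other changes was not tested.

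On the deposited scale the 66 higher members became 14 with quantile scaling, 26 with structural RNAs left out, 11 with a filter at 5 TPM and 28 with a filter on input. The 1 lower member became 5 with quantile scaling, 5 with structural RNAs left out, and 0 with no filter, a pseudocount of 0.1, no trend, the replicate block, the length trend removed or any 1 library left out (0 to 0).
On the median-ratio scale the 19 higher members became 10 with no filter, 3 with a filter at 5 TPM, 9 with a filter on input and 11 to 14 with 1 library left out. The 8 lower members became 5 with quantile scaling, 5 with structural RNAs left out, 5 with no filter, 4 with a filter at 5 TPM, 5 with a filter on input and 4 to 6 with 1 library left out.
The 12 higher plasma membrane members became 7 with no filter, 2 with a filter at 5 TPM, 7 with a filter on input and 6 to 9 with 1 library left out. The 1 lower became 0 with structural RNAs left out, no filter, either filter or the replicate block, 2 with the length trend removed, and 0 to 1 with 1 library left out.
The 2 higher SLC25 members became 1 with quantile scaling, 0 with no filter, 0 with a filter at 5 TPM, 1 with a filter on input, 1 with the replicate block or the crossed block, 4 with the length trend removed, and 0 to 1 with 1 library left out. The 6 lower became 3 with quantile scaling, 3 with a filter at 5 TPM and 3 to 5 with 1 library left out.
The gap of -0.23 between the classes moved to -0.38 with structural RNAs left out, -0.82 with a filter at 5 TPM, -0.61 with a filter on input, -0.37 with a pseudocount of 0.1, and -0.38 to -0.20 with 1 library left out.

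The numbers 1 and 3 did not pair the libraries (correlation -0.187 on the median-ratio and -0.168 on the deposited scale). With the replicate block 59 members were higher and 0 lower as deposited, and 17 higher and 6 lower on the median-ratio scale; with the numbers crossed, chosen after seeing the data, 66 and 1, and 17 and 8.

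Deposited differences turned negative with quantile scaling for SLC1A5 (-0.035), SLC39A3 (-0.62), SLC38A1 (-0.33), SLC39A1 (-0.30), SLC1A4 (-0.25), SLC25A5 (-0.047), SLC25A3 (-0.16), SLC25A39 (-0.50), SLC25A1 (-0.63), SLC25A23 (-0.37), SLC39A7 (-0.17), SLC35A4 (-0.23), SLC17A5 (-0.086), SLC9A3R1 (-0.49), SLC4A1AP (-0.14) and SLC24A1 (-0.22), and with structural RNAs left out for SLC39A3 (-0.59), SLC38A1 (-0.15), SLC39A1 (-0.10), SLC1A4 (-0.031), SLC25A5 (-0.32), SLC25A3 (-0.28), SLC25A39 (-0.44), SLC25A1 (-0.60), SLC25A23 (-0.24), SLC39A7 (-0.0093) and SLC9A3R1 (-0.47).
On the median-ratio scale, signs turned for SLC17A5 (-0.086) and SLC24A1 (-0.22) with quantile scaling, SLC1A5 (0.074), SLC35A4 (0.025) and SLC4A1AP (0.14) with structural RNAs left out, SLC24A1 (-0.017) with no filter, SLC1A5 (0.041) with a filter at 5 TPM, SLC1A5 (0.026) and SLC4A1AP (0.063) with a filter on input, and SLC24A1 (-0.22) with the length trend removed. With 1 library left out SLC4A1AP ranged up to 0.016 and SLC24A1 from -0.18 to 0.19. None of these members was called on that scale.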
